A study of Mus musculus with 41 samples.

Results

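Liver RNA of 8 control (air exposed) mice was measured against a pooled mouse reference RNA on 2-color oligonucleotide arrays, and these 8 arrays are described here out of the 41 samples of the series. They were taken by their labels, as the control arrays titled liver, and no measured value was used to choose them. The animals were C57BL/6 females, of the substrain C57BL/6BomTac by the study's methods, that had been time-mated but had not conceived, and the labels give their age as equivalent to GD4, gestational day 4. They breathed filtered air for 1 hr per day on 11 days and were killed 5 days after the last exposure. How the gestational day of the labels relates to this schedule was not settled. The Cy5 channel of each array held the RNA of a randomly taken part of the liver of 1 mouse, and the Cy3 channel held the same universal reference on every array, total RNA pooled from 11 mouse cell lines. No array had the dyes the other way round.

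The liver is built mostly of hepatocytes, which make the bulk of the plasma proteins, form bile, keep blood glucose steady and turn ammonia, drugs and steroids into forms that can leave the body. They share the organ with Kupffer cells, the resident macrophages, with sinusoidal endothelial cells, vitamin A-storing stellate cells and the cells lining bile ducts. Cultured cell lines divide, rest on plastic and mostly lack these functions. A ratio of liver to such a pool sets the organ beside dividing cells, gene by gene.

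Each value below is the log2 ratio of liver over reference, in which 0 is an equal signal, 1 is a 2-fold excess in liver and -1 a 2-fold excess in the reference. A gene was called higher or lower where its mean over the 8 mice differed from 0 by more than 2-fold (limma, treat test, Benjamini-Hochberg adjusted p below 0.05 over 41174 probes). The error of a mean is the SD over 8 mice unless it is named as SE. The test covers the spread between mice and treats the 8 arrays as independent, although they lay in pairs on slides (consensus slide correlation 0.316). It does not cover the spread of the reference, which is 1 RNA pool, or a dye bias of a probe, since no dyes were swapped. A ratio does not rank genes by their level, because a gene that the reference expresses strongly has a low ratio however much liver holds.

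Between 55.1% and 70.5% of the spots of an array were well above background in the liver channel and 59.5% to 70.5% in the reference channel. Of 41174 probes, 21432 (52.1%) were well above background in liver on all 8 arrays and 23749 (57.7%) in the reference. The 8 arrays lay in pairs on 4 slides. The log2 ratios of arrays of the same slide correlated at 0.985 to 0.988 across probes and those of different slides at 0.969 to 0.985, and each array was most like its slide partner. On slides 2 and 4 the highest ratios were smaller, so that Akr1c6 stood at 9.43, 9.43, 9.41 and 9.58 there and at 10.17, 10.19, 10.02 and 10.23 on slides 1 and 3.

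The tissue carried the marks of hepatocytes. All 9 measured hepatocyte markers were called higher than the reference, with log2 ratios of 3.49 to 9.17, where over all probes 7.04% were called higher and 8.90% lower. Hnf4a, the nuclear receptor that upholds hepatocyte identity, ran from 5.24 to 5.60 with a median of 5.30 over the 8 mice, 41.5-fold higher than the reference (log2 mean 5.37, SE 0.04, adjusted p = 5.53e-14). Alb, which encodes serum albumin, ran from 4.11 to 4.49 with a median of 4.39, 20.4-fold higher than the reference (log2 mean 4.35, SE 0.04, adjusted p = 2.07e-13). In tissue RNA such as this, more cells of a type and more RNA per cell cannot be told apart.

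In all, 2898 probes were called higher in liver and 3663 lower, so that 44.2% of the calls were higher. Scanner intensities centred on the median of each array, without loess, gave 2066 higher and 7063 lower, or 22.6% higher. The range was wider on the liver side, with 334 probes called higher at a mean above 5 and 10 called lower at a mean below -5. With 1 probe per gene, 2237 of 27670 genes (8.08%) were higher and 2992 (10.8%) lower, with a median of -0.02 over all genes. These gene shares are the background for each group of genes below.

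The highest ratio of a named gene belonged to Akr1c6, an aldo-keto reductase that acts on steroids, at 9.41 to 10.23 with a median of 9.80. Rgn, which encodes regucalcin, an enzyme of the ascorbate route, followed at 8.91 to 10.05 with a median of 9.55. Cps1, which makes carbamoyl phosphate for urea, stood at 8.86 to 9.56 with a median of 9.28. Every mouse lay more than 8 log2 units above the reference at these 3 genes. The 20 highest genes also held the plasma proteins Cfi, Apoh, Fgg, Ambp, Serpinc1 and Proz, the cytochromes Cyp3a41a and Cyp3a16, the bile acid and drug importer Slco1b2, the fatty acid carrier Fabp1, the esterase Aadac and the steroid-reducing Akr1c20. Pck1 of gluconeogenesis, Otc of the urea cycle, the mitochondrial reductase Mtarc1 and the pheromone-binding Mup1, at 7.94 ± 0.26, were also among them. Mup genes are near-copies of each other, and the probe may read several of them.

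At the other end, S100a4, a calcium-binding protein of motile cells, was lowest at -7.28 to -6.63 with a median of -6.86, 119-fold lower than the reference (log2 mean -6.90, SE 0.08, adjusted p = 3.44e-13). S100a6 of the same family stood at -6.82 to -6.21 with a median of -6.58 and Vim, the intermediate filament of mesenchymal cells, at -6.36 to -5.52 with a median of -6.15. The 20 lowest genes also held the annexins Anxa1 and Anxa3, the galectins Lgals1 and Lgals3, the caveolar coat gene Cav1 and the collagen chain Col1a1. Asns, which makes asparagine, and Phgdh, which starts serine synthesis, were among them at -5.63 ± 0.18 and -4.95 ± 0.16. Cenpe, Ncapg and Mki67 of dividing cells, the desaturase Scd2, the matrix phosphoprotein Spp1, the interferon-inducible Ifi202b, the interleukin receptor Il1rl1 and the melanoma antigen Mela, a retroviral sequence, also belonged to them. Ifi202b was above background in liver on 4 of 8 arrays, and the others named here on 8 of 8.

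**Figure D1:**
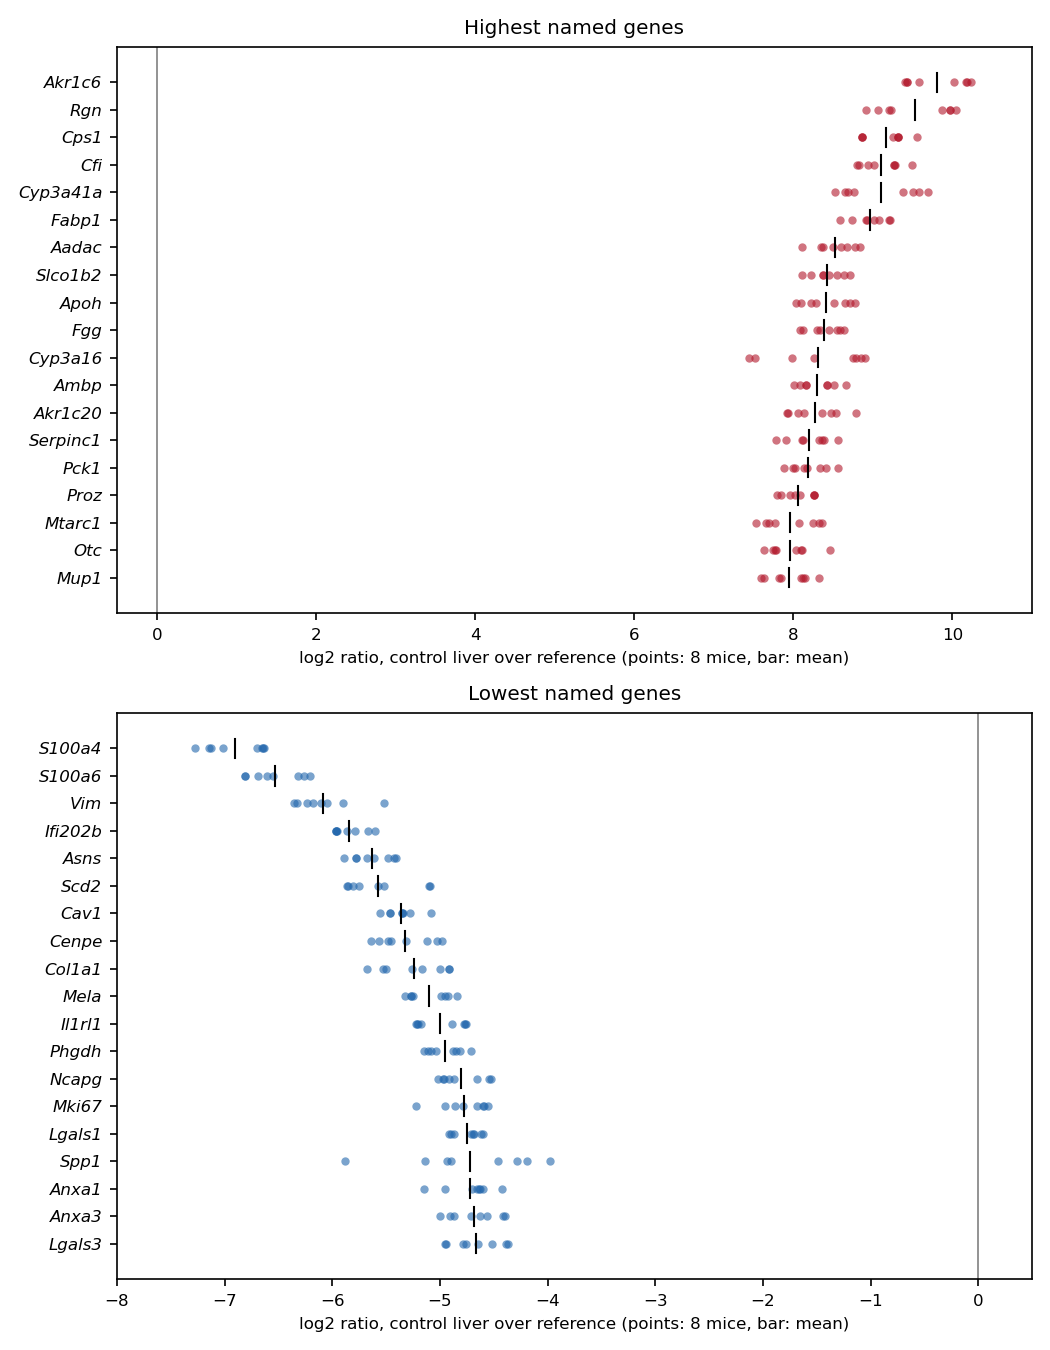
Log2 ratio of control liver over reference for the highest (upper panel) and lowest (lower panel) named genes, 1 gene per row, with 8 points for the 8 mice and a bar at their mean. The highest gene, Akr1c6, has a mean of 9.81 and the lowest, S100a4, of -6.90, and the points of each gene lie far from 0.

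Genes of secreted plasma proteins were almost all higher in liver. Of 36 measured carriers and protease inhibitors, 35 were called higher and none lower, with a median log2 ratio of 5.42. Apoh, a phospholipid-binding glycoprotein, ran from 8.04 to 8.78 with a median of 8.40, 341-fold higher than the reference (log2 mean 8.41, SE 0.09, adjusted p = 1.24e-13). Ambp, the precursor of alpha-1-microglobulin and bikunin, ran from 8.01 to 8.66 with a median of 8.29. Transport proteins reached 5.78 ± 0.14 for the thyroxine carrier Ttr, 6.84 ± 0.16 for the retinol carrier Rbp4, 4.46 ± 0.16 for fetuin-A, Ahsg, and 5.72 ± 0.23 for transferrin, Trf. Serpina7, the thyroxine-binding globulin, was below background in the reference on every array, so that only a bound can be given, at least 4.44-fold higher in liver (adjusted p = 8.94e-06). Such bounds come from another normalization and are no firm minimum. The exception among the carriers and inhibitors was A2m, alpha-2-macroglobulin, at 0.17 ± 0.13, above background in liver on 3 of 8 arrays. The related Mug1 and Pzp stood at 6.95 ± 0.16 and 6.24 ± 0.30.

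The promoters of 3 of these secreted protein genes are shown because they carry, within 150 bases of the start, the sequence element of C/EBP, a family of factors prominent in liver whose own genes are described further on. Capitals mark a match to TTGCNNAA (C/EBP), to CCAAT or to TATAAA (not found in these 3) on either strand, no matches overlap one another, and the sequences are from the RefSeq table on GRCm38.p6. Alb lies at chr5:90460720-90460869 on the plus strand, Fgb, the fibrinogen beta chain, at chr3:83049864-83050013 on the minus strand and Fga, the alpha chain, at chr3:83026003-83026152 on the plus strand.
Alb: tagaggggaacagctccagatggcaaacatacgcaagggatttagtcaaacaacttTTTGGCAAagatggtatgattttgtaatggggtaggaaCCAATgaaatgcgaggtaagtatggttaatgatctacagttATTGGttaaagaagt
Fgb: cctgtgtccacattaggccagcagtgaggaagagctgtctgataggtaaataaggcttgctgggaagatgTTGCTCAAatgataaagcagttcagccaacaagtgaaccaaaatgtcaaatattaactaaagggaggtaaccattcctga
Fga: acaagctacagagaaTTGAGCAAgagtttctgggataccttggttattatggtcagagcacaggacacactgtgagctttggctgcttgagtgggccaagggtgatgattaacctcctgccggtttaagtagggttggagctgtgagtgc
Over all 32851 promoters of the table, 9.56% held a C/EBP match and 12.4% TATAAA in the 250 bases before the start. Counted by gene, with any of its starts, the C/EBP match was in 10.8% of 27025 genes. Among the plasma carrier genes 11 of 28 with a promoter in the table held the C/EBP match, and among the coagulation genes 7 of 23. The match was in 3 of 19 apolipoprotein and lipoprotein genes and in 4 of 35 genes of the urea cycle and amino acid breakdown (11.4%), which are liver-high lists as well. These are counts of letters and not of bound factors.

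Apolipoproteins and lipoprotein handling genes were called higher for 24 of 28, with none lower and a median of 4.15. Apob, the scaffold of very-low-density lipoprotein, ran from 6.22 to 6.77 with a median of 6.58, 94.0-fold higher than the reference (log2 mean 6.55, SE 0.06, adjusted p = 6.62e-14), and Apoa1, the main protein of high-density lipoprotein, from 4.96 to 5.38 with a median of 5.22. The sterol exporter Abcg5 stood at 5.96 ± 0.21. Its partner Abcg8 was below background in the reference on every array and at least 7.53-fold higher in liver. The 4 not called were Angptl6, Pltp, Angptl4 and Lrp1, and Angptl4, a lipase inhibitor that responds to fasting, had a wide spread at 0.64 ± 0.93.

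In the coagulation group 23 of 31 genes were higher and 6 lower (median 5.00). The fibrinogen chains Fgg, Fga and Fgb stood at 8.38 ± 0.21, 6.13 ± 0.32 and 6.15 ± 0.24, prothrombin F2 at 6.49 ± 0.15 and antithrombin Serpinc1 at 8.20 ± 0.26. The lower genes, which vessel wall, monocytes or other cells are known to make, included tissue factor F3 (-1.36 ± 0.21) and thrombomodulin Thbd (-2.10 ± 0.18). Also among them were the activators Plat (-2.62 ± 0.23) and Plau (-2.02 ± 0.15, above background in liver on 4 of 8 arrays) and Plaur (-1.86 ± 0.08), the receptor of Plau. With normexp background correction the higher genes numbered 21 and the lower 1. F9, coagulation factor IX, had an uneven spread, at 4.52, 4.23, 4.59 and 4.32 on slides 1 and 3 and at 3.08, 2.77, 2.87 and 2.88 on slides 2 and 4. Slides 1 and 3 did not overlap with slides 2 and 4 at this gene, and the slide's part in the value cannot be told apart from that of the 2 control mice on it.

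Of the complement genes 25 of 31 were higher and none lower, with a median of 4.07. Cfi, the protease that cleaves C3b, ran from 8.79 to 9.49 with a median of 9.14, 552-fold higher than the reference (log2 mean 9.11, SE 0.08, adjusted p = 5.09e-14). The membrane attack genes C8a, C8b and C8g stood at 6.38 ± 0.17, 6.06 ± 0.25 and 5.56 ± 0.21, and C9 was at least 19.7-fold higher, with the reference below background on every array. C7 of the same complex was below background in liver on all 8 arrays, and C6 stood at 2.20 ± 0.58, its reference signal above background on 7 of 8 arrays. The macrophage-derived C1qa, C1qb and C1qc were higher too, at 4.01 ± 0.28, 2.81 ± 0.41 and 4.07 ± 0.06.

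Of the acute phase genes 18 of 27 were higher and none lower (median 3.05), among them the orosomucoids Orm1 (6.31 ± 0.24) and Orm2 (6.51 ± 0.27), haptoglobin Hp (5.21 ± 0.10) and hemopexin Hpx (6.69 ± 0.15). The serum amyloid A genes ran from Saa4 at 5.80 ± 0.17, which is made constitutively, through Saa2 at 4.43 ± 0.08 and Saa1 at 2.43 ± 0.39 to Saa3 at -0.91 ± 0.43, which was not called. Saa1 and Saa2 are near-copies and a probe may read both. Not called either were Lcn2, an iron-siderophore binder, at 0.06 ± 0.49, and the metallothioneins Mt1 and Mt2 at -1.06 ± 0.79 and -1.34 ± 1.01.

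Amino acid breakdown and urea synthesis were called higher for 44 of 47 genes, none lower, with a median of 4.77. The urea cycle ran from Cps1 and Otc at 9.17 ± 0.27 and 7.95 ± 0.27 through Arg1 at 6.14 ± 0.16 to Ass1 at 3.49 ± 0.16 and Asl at 3.22 ± 0.21. Those last 2 enzymes also serve arginine synthesis in other cells. Breakdown of tyrosine was represented by Tat (5.49 ± 0.26), Hpd (5.54 ± 0.19), Hgd (5.48 ± 0.30) and Fah (2.14 ± 0.07), in the order of the route. Kynu, of tryptophan breakdown, was at least 34.0-fold higher with the reference below background. The synthetic enzymes Asns and Phgdh, named above, lay on the other side of the reference, and Asns ran from -5.89 to -5.41 with a median of -5.64, 49.6-fold lower than the reference (log2 mean -5.63, SE 0.06, adjusted p = 1.55e-13).

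Glucose enzymes divided by isoform in the pairs named below. Of 20 genes of liver-type glucose and fructose handling 18 were higher and none lower (median 4.01). Among 27 other glycolytic genes none was higher and 22 were lower (median -2.11). That list is not confined to forms of other tissues, as it holds Pfkl, Tpi1 and Pgk1. Its median in the control lung described further on was -1.57, with 9 of 27 lower and 3 higher in liver than in lung. The pyruvate kinases Pklr and Pkm stood at 2.87 ± 0.48 and -3.75 ± 0.11, and the glycogen synthases Gys2 and Gys1 at 5.95 ± 0.16 and -1.98 ± 0.10. Among the phosphorylases liver-type Pygl stood at 6.08 ± 0.07 and brain-type Pygb at -1.50 ± 0.11. Of the glucose carriers Slc2a2 was at least 112-fold higher in liver (adjusted p = 4.31e-12), its reference signal being below background on 8 of 8 arrays, and Slc2a1 was lower, at -4.42 to -3.81 with a median of -4.10. No mouse overlapped between the 2 forms in any of these pairs. Of the other glycolytic genes, the hexokinases Hk1 and Hk2 of other tissues stood at -2.87 ± 0.15 and -2.11 ± 0.09 and the muscle aldolase Aldoa at -3.01 ± 0.14. The gluconeogenic Pck1, Fbp1 and G6pc stood at 8.19 ± 0.23, 7.44 ± 0.17 and 4.85 ± 0.28.

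**Figure D2:**
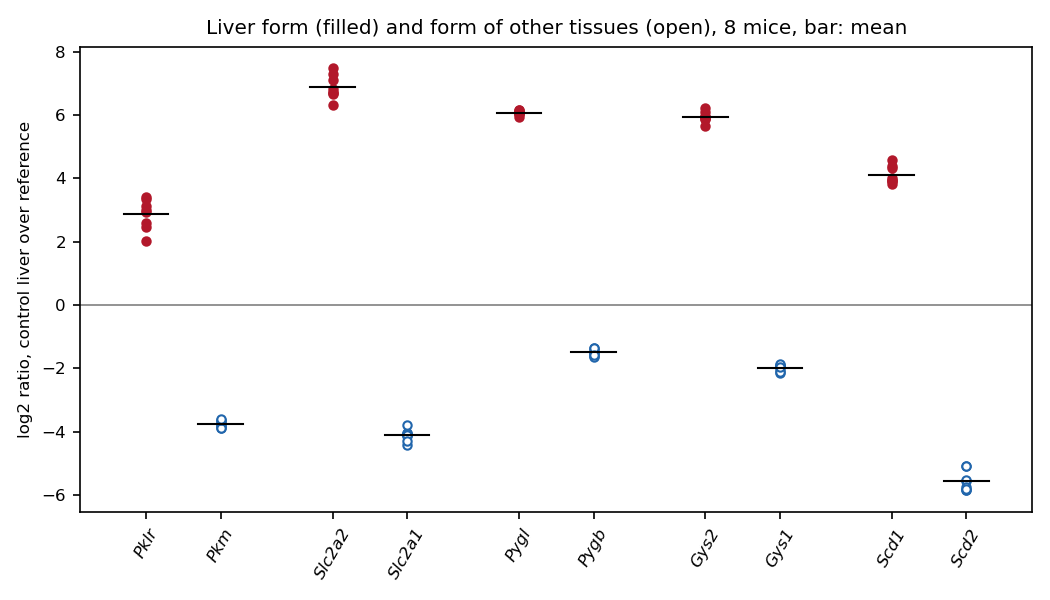
Log2 ratio of control liver over reference for 5 pairs of enzyme or carrier genes, the liver form (filled) beside the form of other tissues (open), with 1 point per mouse and a bar at the mean of 8. The reference signal of Slc2a2 was below background, so that its points understate the ratio. The liver forms lie above 0 and the others below 0 in each pair, from 6.08 against -1.50 for the phosphorylases Pygl and Pygb to 2.87 against -3.75 for the pyruvate kinases Pklr and Pkm.

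Fatty acid oxidation and ketone body genes were higher for 33 of 41 and lower for 1, with a median of 2.48. The 1 lower gene was Oxct1, the enzyme with which other tissues use ketone bodies, at -4.58 to -4.06 with a median of -4.34, 20.5-fold lower than the reference (log2 mean -4.36, SE 0.06, adjusted p = 1.27e-12). Mitochondrial beta-oxidation enzymes were called with smaller ratios, from 1.32 ± 0.12 for Hadhb to 2.26 ± 0.21 for Acadl, and Hadha, at 1.06 ± 0.08, was not called. Fabp1, the liver fatty acid carrier, stood at 8.96 ± 0.22 and Slc27a2, which imports and activates fatty acids, at 7.85 ± 0.35.

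Sterol and fatty acid synthesis genes were higher for 28 of 38 and lower for 2, with a median of 1.90. The desaturases again split by tissue, with Scd1 from 3.84 to 4.59 with a median of 3.98 and Scd2 from -5.86 to -5.09 with a median of -5.66. Of the sterol branch Mvk, Mvd, Lss and Sqle were not called, and their means lay between 0.59 and 0.98. The transcription factor Srebf1, which drives fatty acid synthesis, was higher at 1.49 ± 0.42, and Srebf2, which drives sterol synthesis, lower at -1.13 ± 0.12 (adjusted p = 0.0250). That call was narrow, since it was lost without mouse 24, 32, 34, 37 or 45, with adjusted p up to 0.0679, and up to 0.499 with slides 2 and 4 alone. Srebf1 was not called with slides 1 and 3 alone (1.33, adjusted p = 0.113).

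Bile acid synthesis and transport genes were higher for 30 of 31 (median 4.05). The sodium-coupled importer Slc10a1 stood at 5.05 ± 0.28, the canalicular export pump Abcb11 at 6.04 ± 0.20 and the conjugating enzyme Baat at 6.82 ± 0.14. Cyp7a1, the rate-limiting enzyme of the classical route, was the most uneven of the synthetic enzymes, from 3.43 to 6.80 with a median of 5.35, 38.4-fold higher than the reference (log2 mean 5.26, SE 0.30, adjusted p = 3.15e-07), and it was above background in the reference on 5 of 8 arrays. The single lower gene was Abcc4, an exporter of the sinusoidal membrane, at -1.64 ± 0.19.

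Cytochrome P450 genes were higher for 50 of 65 measured, lower for 3 and not called for 12, with a median of 4.24. Families 2, 3 and 4 held the highest ratios, with Cyp3a41a from 8.53 to 9.69 with a median of 9.08, Cyp2j5 from 7.68 to 8.19 with a median of 7.98 and Cyp4a14 from 6.91 to 8.32 with a median of 7.60. The members of the Cyp2c, Cyp3a and Cyp4a clusters are close copies, and their probes may share signal. The 3 lower genes were Cyp2s1 (-2.43 ± 0.28), Cyp1b1 (-2.14 ± 0.15) and Cyp2c55 (-1.33 ± 0.25), forms of other organs. Cyp1a2, the constitutive hydrocarbon-inducible form of liver, stood at 4.11 ± 0.14, whereas Cyp1a1, which needs an inducer, was above background on 1 of 8 arrays. The steroid-making Cyp11a1 and Cyp19a1 were above background on 0 and 1.

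Conjugating enzymes and esterases were higher for 47 of 59 (median 3.80). The paraoxonase Pon1 stood at 7.76 ± 0.23, while the reference was below background for Ugt2b1 and Sult1b1, which were at least 49.3-fold and at least 43.2-fold higher. Glutathione transferases fell along their classes, with Gsta3 and Gstm1 at 4.23 ± 0.13 and 3.96 ± 0.20 and Gstp1, the form of many other tissues, at -0.29 ± 0.18, not called. Mgst2, a microsomal transferase, was the single lower gene, from -3.07 to -2.91 with a median of -3.01.

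Liver transcription factors and nuclear receptors were higher for 26 of 42 (median 3.00). Cebpa, of the family whose element is marked in the promoters above, ran from 4.29 to 4.91 with a median of 4.61, 24.0-fold higher than the reference (log2 mean 4.58, SE 0.06, adjusted p = 1.94e-12). Foxa2 stood at 5.44 ± 0.29, the bile acid receptor Nr1h4 at 4.90 ± 0.17 and the fatty acid receptor Ppara at 4.17 ± 0.12. The C/EBP family was divided, with Cebpa higher, Cebpb at -0.25 ± 0.55 and not called, and Cebpd, which rises in inflammation, lower at -3.53 to -2.73 with a median of -3.12.

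Among hormone and growth factor genes, IGF1 and its receptor lay on opposite sides of the reference. Igf1, the growth factor that growth hormone induces, ran from 4.76 to 5.14 with a median of 4.99, 31.6-fold higher than the reference (log2 mean 4.98, SE 0.04, adjusted p = 5.33e-14), and its receptor Igf1r from -3.07 to -2.71 with a median of -2.96, 7.60-fold lower than the reference (log2 mean -2.93, SE 0.04, adjusted p = 1.06e-11). The growth hormone receptor Ghr stood at 2.35 ± 0.11, the insulin receptor Insr at 1.93 ± 0.28, the glucagon receptor Gcgr at 6.80 ± 0.34 and the serum partner of IGF1, Igfals, at 3.78 ± 0.21. Igf2, the fetal growth factor, counted with the fetal genes below, was lower at -2.30 ± 0.06. In the hormone group 21 of 35 genes were higher and 2 lower, with a median of 2.35.

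Iron and heme genes were higher for 16 of 25 and lower for 1 (median 3.00). Hamp, the iron hormone hepcidin, stood at 3.32 ± 0.27 and its regulators Tfr2, Tmprss6 and Hjv at 5.63 ± 0.12, 4.72 ± 0.12 and 3.63 ± 0.23. Of the ferritin chains Ftl1 stood at -0.05 ± 0.15 and Fth1 at -1.01 ± 0.17, neither called, and Hmox1, which breaks down heme, was lower at -1.89 ± 0.23.

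Hepatocytes differ along the blood path from the portal vein to the central vein, and genes of both zones were present in the sampled pieces. All 24 measured periportal genes were called higher, with a median of 5.12, and 20 of 25 pericentral genes, with a median of 4.11. Glul, the glutamine synthetase of the last cell layer around the central vein, ran from 4.60 to 4.94 with a median of 4.76, and Hal, a periportal enzyme of histidine breakdown, from 5.07 to 5.41 with a median of 5.27. The mean over the periportal genes lay between 4.96 and 5.37 in the 8 mice and that over the pericentral genes between 3.35 and 3.68. The Wnt target Lgr5 was at least 4.92-fold higher, with the reference below background, and Axin2, another target, stood at 0.56 ± 0.25, not called.

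Sex-dependent liver genes can be read here only against the pool, as no male was measured. Of genes known to be higher in female mouse liver 21 of 24 were higher than the reference (median 4.39) and none lower. Of genes known to be higher in males 16 of 25 were higher and 1 lower (median 3.12). Xist, the RNA of the inactive X chromosome, ran from 1.20 to 1.78 with a median of 1.55, 2.86-fold higher than the reference (log2 mean 1.52, SE 0.07, adjusted p = 7.85e-05). Of 9 Y chromosome genes 6 were below background in liver on all arrays. Ddx3y and Eif2s3y were lower than the reference, with Ddx3y at least 2.71-fold lower and Eif2s3y at -1.70 ± 0.13, above background in liver on 1 of 8 arrays, and with normexp background correction 0 Y chromosome genes were called lower. Zfy1 was above background on 8 arrays of liver and on 8 of the reference, at 0.15 ± 0.12.

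**Figure D3:**
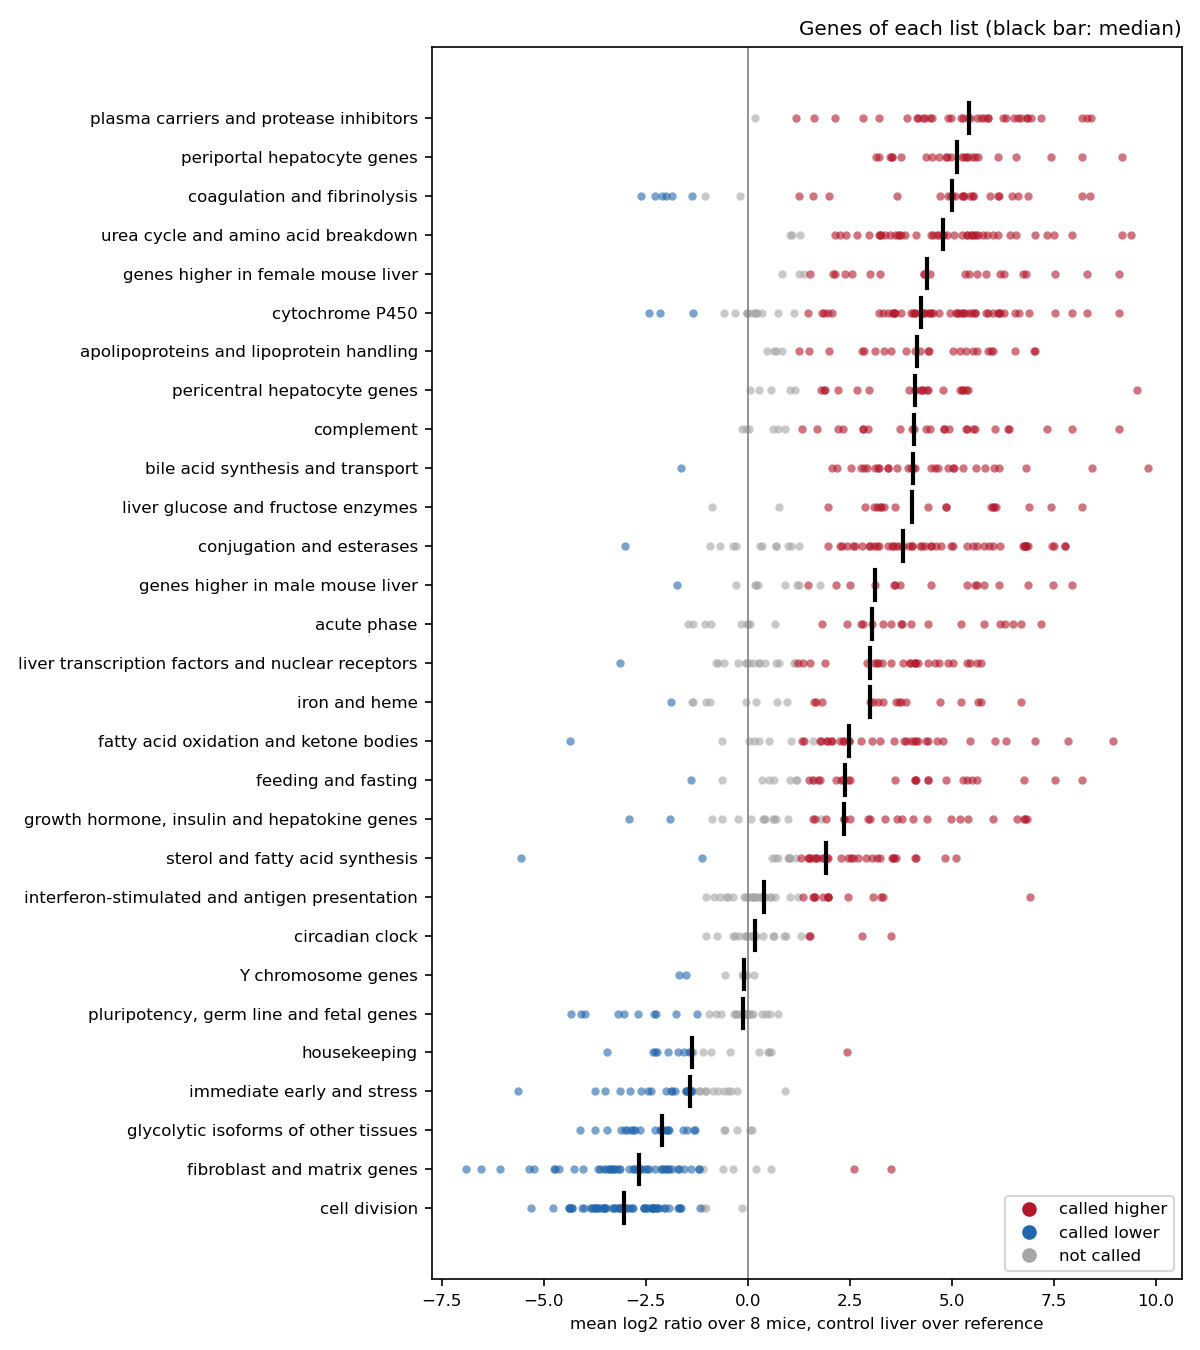
Mean log2 ratio of control liver over reference of each member of 29 gene lists, 1 list per row, with members called higher, lower or not called at 2-fold in different colors and a black bar at the median of the list. The top rows, such as plasma carriers (median 5.42), lie right of 0 and cell division genes (median -3.04) left of it.

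Genes of cell division lay almost all on the reference side. Of 60 measured, 57 were called lower and none higher, with a median of -3.04, against 10.8% lower among all genes. Mki67, the proliferation antigen, ran from -5.22 to -4.55 with a median of -4.72, 27.4-fold lower than the reference (log2 mean -4.78, SE 0.07, adjusted p = 3.10e-12). Cenpe, the kinetochore motor, ran from -5.64 to -4.98 with a median of -5.38, Ccnb1, cyclin B1, from -4.03 to -3.71 with a median of -3.83 and Mcm6 of the replicative helicase from -4.87 to -3.91 with a median of -4.41. Bub1 of the spindle checkpoint was below background in liver on every array and at least 11.7-fold lower. The 3 that were not called were Ttk (-1.03 ± 0.17, below background in liver on every array) and Tk1 (-1.09 ± 0.15), and Ccnd1, cyclin D1 of the early growth phase, at -0.14 ± 0.26. With normexp background correction 48 were called lower.

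Promoters of 3 of these genes are shown for contrast. Capitals mark CCAAT and the cell cycle homology elements TTTGAA and TTCGAA on either strand, again in the 150 bases before the start on GRCm38.p6, and no matches overlap one another. Cdc20, an activator of the anaphase-promoting complex, lies at chr4:118437344-118437493 on the minus strand, Cdk1, the mitotic kinase, at chr10:69352913-69353062 on the minus strand and Top2a, a topoisomerase, at chr11:99024190-99024339 on the minus strand.
Cdc20: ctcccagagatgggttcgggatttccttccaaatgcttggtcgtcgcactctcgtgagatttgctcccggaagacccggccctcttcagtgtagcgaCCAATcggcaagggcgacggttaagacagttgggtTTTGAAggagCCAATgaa
Cdk1: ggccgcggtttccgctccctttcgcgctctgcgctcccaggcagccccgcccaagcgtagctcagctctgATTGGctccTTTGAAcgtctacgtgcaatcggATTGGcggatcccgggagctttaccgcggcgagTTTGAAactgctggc
Top2a: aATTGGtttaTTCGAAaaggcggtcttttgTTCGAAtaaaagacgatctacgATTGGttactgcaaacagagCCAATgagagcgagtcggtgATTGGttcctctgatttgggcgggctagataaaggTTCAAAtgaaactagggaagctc
CCAAT was present in the 250 bases before the start of 36 of 49 cell division genes in the table and TTTGAA in 12, against 37.5% and 18.3% of all genes and 33.8% and 16.0% of all promoters. TTCGAA was in 3 of them, against 1.55% of all genes and 1.34% of all promoters. A C/EBP match was in 2 of the 49. Among liver-high lists CCAAT was in 14 of 28 plasma carrier genes and in 20 of 35 genes of the urea cycle and amino acid breakdown. It was in 6 of 19 apolipoprotein and lipoprotein genes and in 5 of 23 coagulation genes. Cdc20 itself stood at -4.31 ± 0.19, Cdk1 at -2.34 ± 0.07 and Top2a at -3.56 ± 0.09.

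Fibroblast and matrix genes were lower for 46 of 53 and higher for 2, with a median of -2.66. The fibrillar collagen chains Col1a1, Col1a2 and Col3a1 stood at -5.24 ± 0.30, -4.64 ± 0.27 and -3.69 ± 0.36 and the contractile Acta2 and Tagln at -2.92 ± 0.07 and -2.53 ± 0.27. The 2 higher genes were Col18a1, the source of endostatin, from 3.42 to 3.54 with a median of 3.50, and Lum, the proteoglycan lumican, from 2.31 to 2.83 with a median of 2.63. Fn1, the fibronectin that hepatocytes secrete into plasma, was close to the pool at -0.62 ± 0.04 and not called.

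Of the pluripotency, germ line and fetal genes 10 of 35 were lower and none higher (median -0.13), and 5 were lower with normexp correction. The growth regulators Hmga2, Hmga1 and Dlk1 stood at -4.33 ± 0.17, -4.08 ± 0.23 and -3.18 ± 0.08 and the RNA binder Igf2bp3 was at least 4.50-fold lower with liver below background. Pou5f1, Nanog and Sox2 had ratios near 0 (0.02 ± 0.06, -0.03 ± 0.05 and -0.05 ± 0.08). Nanog and Sox2 were below background in both channels on every array. Afp, the albumin-like protein of fetal liver, stood at -0.96 ± 0.44 and was not called.

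Genes often used as constant standards were not level against this reference. Of 18, 9 were called lower and 1 higher, with a median of -1.37, and the lower numbered 7 to 10 over all normalizations and subsets of arrays tried at the 2-fold threshold. Tubb5, a tubulin, stood at -3.46 ± 0.17, the ribosomal Rplp0 at -2.33 ± 0.07, actin Actb at -1.71 ± 0.26 and Hprt, of purine salvage, at -0.91 ± 0.12, while the respiratory chain subunit Sdha was higher at 2.44 ± 0.32. Ratios are scaled within each array to a centre near 0, so that a shift shared by most genes could not be seen.

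Markers of the other liver cells were present besides those of hepatocytes. Of 13 Kupffer cell and macrophage markers 9 were higher and 1 lower (median 3.46). Clec4f, a lectin of mouse Kupffer cells, ran from 5.26 to 5.72 with a median of 5.45, 44.1-fold higher than the reference (log2 mean 5.46, SE 0.04, adjusted p = 5.09e-14), and Cd5l, a secreted macrophage protein, from 6.59 to 6.90 with a median of 6.74, whereas Cd68, a marker of macrophages in general above background in the reference on 8 of 8 arrays, was lower at -2.05 ± 0.19. Of 14 endothelial markers 10 were higher (median 2.11, or 2.14 with the 3 that the reference lacked at their bounds), with the sinusoidal Clec4g and Stab2 at 4.88 ± 0.32 and 2.96 ± 0.17 and the general endothelial cadherin Cdh5 at least 13.5-fold higher. Of 13 stellate cell markers 7 were higher and 1 lower (median 1.95). Reln, a secreted matrix protein of these cells, ran from 4.03 to 4.63 with a median of 4.19 and Lrat, which stores vitamin A as esters, was at least 6.83-fold higher, while Des and Pdgfrb stood at -1.18 ± 0.12 and -1.14 ± 0.22. With normexp correction the endothelial count was 6 and the stellate count 2.

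Of 12 bile duct markers 2 were higher, among them the factor Onecut1, which hepatocytes also express, and 3 lower, the keratin Krt19 (-2.88 ± 0.34), Epcam (-2.23 ± 0.22) and Spp1 (-4.72 ± 0.62), and 7 were not called. Of 15 T and NK cell markers none was higher and 4 were lower. Of 10 B cell markers 1 was higher, Ighm, the IgM heavy chain, at 2.54 ± 0.42, and 2 were lower. Globin RNA was high, as Hbb-bt stood at 6.46 ± 0.24 and Hba-a1 at 4.10 ± 0.28, while the precursor cell markers Rhag and Epb42 were below background in liver on every array. Markers of tissue next to the liver were looked at as well. Of 12 pancreatic markers 1 was higher, the amylase Amy2 at 3.06 ± 0.26, above background in the reference on 1 of 8 arrays, and Prss2 and Cpa1 stood at -0.01 ± 0.08 and 0.09 ± 0.05. The fat cell hormones Adipoq and Lep were above background on 2 and 0 of 8 arrays, and of 10 mesothelium and muscle markers none was higher and 5 were lower. In liver 5 of the pancreatic, 5 of the fat cell and 7 of the mesothelium and muscle markers were well above background on all 8 arrays, and their part in the other ratios was not tested. Platelet markers were higher for 0 of 7 and lower for 1, and fat cell markers higher for 3 of 10 and lower for 1.

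Interferon and antigen presentation genes were higher for 13 of 38 with none lower, and the median was 0.40. Iigp1, an interferon-inducible GTPase, ran from 6.39 to 7.12 with a median of 6.96, 120-fold higher than the reference (log2 mean 6.91, SE 0.07, adjusted p = 1.68e-13). The class II genes H2-Ab1 and H2-Eb1 stood at 3.31 ± 0.12 and 3.06 ± 0.34 and the class I gene H2-Q10, whose product liver secretes, at 1.97 ± 0.09, whereas Isg15 lay near the pool at 0.01 ± 0.28. With normexp correction 7 were higher.

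Genes of the immediate early and stress response were lower for 18 of 33 and higher for none (median -1.42). Myc, a growth-promoting factor, stood at -3.12 ± 0.79 and Cdkn1a, an inhibitor of the cell cycle, at -2.88 ± 0.14, while Egr1 had a wide spread at -1.42 ± 1.22 and was not called. Of genes that respond to feeding and fasting 23 of 32 were higher and 1 lower (median 2.39). The insulin-like growth factor binder Igfbp1 stood at 6.77 ± 0.19 and Thrsp, a lipogenic gene of fed liver, at 4.09 ± 0.16, and the single lower gene was Txnip, a glucose sensor, at -1.40 ± 0.30.

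The 8 mice were alike for most genes. Among genes above background in liver on all arrays the median SD over the mice was 0.14. The lists with the widest spread were the neutrophil markers (median SD 0.60), the circadian clock genes (0.45), the genes higher in female liver (0.43) and the immediate early and stress genes (0.35), against 0.16 for the plasma carriers.

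Clock genes differed more between mice than most. Of 22 measured, 4 were called higher, 0 lower, and the median was 0.17. With normexp correction 1 was called higher, and with median centering 2 were higher, 1 was lower and the median was -0.16. Dbp, a transcription factor with a strong daily rhythm in liver, stood at -1.74, -0.49, -0.34, -0.54, 0.56, 1.86, 1.86 and 1.77 in mice 24, 26, 27, 29, 32, 34, 37 and 45. Arntl, the activator BMAL1, whose rhythm is known to run against that of Dbp, stood at 0.91, 1.03, 0.43, 0.88, 0.21, -1.22, -1.38 and -1.47 in the same order. Mice 34, 37 and 45 were thus the 3 highest for Dbp and the 3 lowest for Arntl.

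These 3 mice also held the 3 highest values of Usp2, a deubiquitinase under clock control, which ran from -1.26 to 2.19 with a median of -0.59, of the repressors Per1, from -2.21 to 0.05 with a median of -1.18, and Per2, from -0.30 to 1.96 with a median of 0.37, and of Tef, a relative of Dbp, from -0.27 to 1.64 with a median of 0.40. They held the 3 lowest values of Clock, from -0.52 to 0.33 with a median of 0.11, and of Nfil3, a competitor of Dbp, from -1.28 to 0.58 with a median of -0.23. Over the 22 clock genes the 3 highest values came from these mice for 11 and the 3 lowest for 4, and over all genes with 1 probe each for 3.08% and 3.31%. The mice were picked out by these values, so the counts are a description and no test was made. Mouse 34 shared slide 3 with mouse 32, and mice 37 and 45 shared slide 4. The slides differed at Tef, Per1, Dbp, Arntl and Usp2 (adjusted p = 0.0102, 0.0130, 0.0216, 0.0255 and 0.0436, limma F test). No slide difference was called at Per2, Clock and Nfil3. Slide and mouse cannot be told apart at these genes. The hour at which each mouse was killed is not given in the sources used here.

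**Figure D4:**
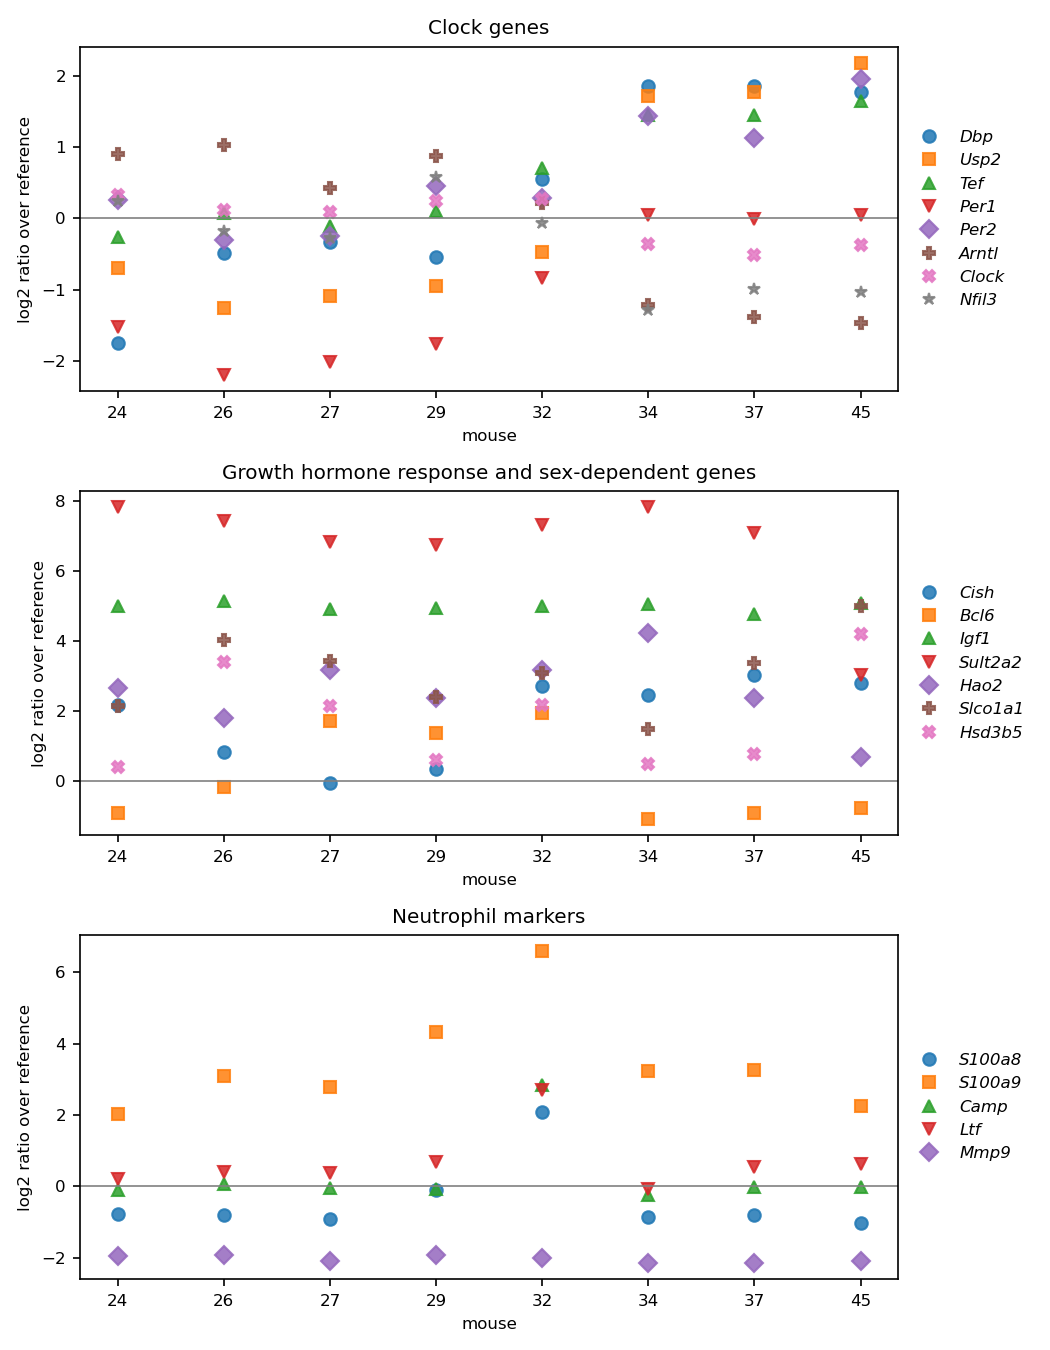
Log2 ratio of control liver over reference in each of the 8 mice for clock genes, genes of growth hormone response and sex-dependent genes, and neutrophil markers (3 panels), 1 symbol per gene and 1 position per mouse. Dbp, Usp2 and Tef are high and Arntl low in mice 34, 37 and 45, and S100a8 and Camp are high in mouse 32.

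Genes that answer to growth hormone and to feeding varied between arrays in other patterns. Cish, an early target of growth hormone signaling, stood at -0.07 and 0.35 in mice 27 and 29, at 0.82 in mouse 26 and at 2.16 to 3.02 in the rest. Mice 27 and 29 shared slide 2, the slides differed at Cish (adjusted p = 0.0124, limma F test), and without slide 2 Cish was called higher, at 2.33, so that slide and mouse cannot be told apart here. Bcl6, a repressor under the same signal, was highest in mice 27, 29 and 32, at 1.72, 1.35 and 1.92, against -1.11 to -0.19 in the others. Igf1, the lasting target of the hormone, hardly varied, with an SD of 0.12. Among sex-dependent genes mouse 45 stood apart at Sult2a2, a female-type sulfotransferase, at 3.02 against 6.73 to 7.84. The female-type Hao2 was lowest in it at 0.68, with the reference below background for Hao2 on every array. The male-type Slco1a1 and Hsd3b5 were highest in it, at 5.00 and 4.19, though Hsd3b5 reached 3.40 in mouse 26. The female-type Cyp3a41a and Cyp3a16 were lowest in mouse 27, at 8.53 and 7.45, against 8.65 and 7.52 in mouse 45. Means over the whole lists, which hold these genes, were lowest in mouse 45 for the female list (3.85 against 4.18 to 4.94). For the male list they were highest in it (3.56 against 2.95 to 3.38). Pdk4, which spares glucose in fasting, ran from -0.20 to 3.24 with a median of 1.78, with mice 34, 37 and 45 the lowest at 0.47, 0.34 and -0.20. The slides differed at Pdk4 too (adjusted p = 0.0348, limma F test), and mice 37 and 45 shared slide 4.

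Neutrophil markers were highest in mouse 32. S100a8, a calcium-binding protein of neutrophils, stood at 2.09 in it and at -1.04 to -0.10 in the other 7, and its partner S100a9 at 6.61 against 2.04 to 4.32. The granule gene Camp stood at 2.84 in mouse 32 and was above background in liver on 1 of 8 arrays, and Ltf, lactoferrin, stood at 2.69 against -0.06 to 0.69. Mouse 32 had the highest value for 9 of 12 neutrophil markers and for 12.3% of all genes. The mouse was picked out by these values, so the count is a description and no test was made. Only 3 of the 12 markers were well above background in liver on all 8 arrays. The mean over the markers was 1.51 in mouse 32 and -0.05 to 0.19 in the rest. The -0.05 was that of mouse 29 and includes Csf3r at -3.28, where the reference signal and not the liver signal stood apart. Over all mice 1 marker was called higher, S100a9, and 1 lower, Mmp9 at -2.04 ± 0.09, neither of them with normexp correction, and Elane was below background in every liver. Of 27 acute phase genes 10 were highest in mouse 32, among them Lcn2 at 1.17, Saa1 at 3.34 and Socs3, a brake on cytokine signaling, at -0.16 against -1.92 to -0.53. Whether these genes came from cells in the tissue or in its blood was not tested.

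Some of the widest spreads followed the slide. Olfr176, listed as an olfactory receptor, stood at 4.19, 3.31, 4.74 and 5.22 on slides 2 and 4 and at 0.64, 0.68, 0.87 and 1.50 on slides 1 and 3, with the reference below background on every array. Epha3, an ephrin receptor, and Olfr644 did the same, with 5.70 to 6.17 and 2.91 to 3.25 against 2.80 to 4.11 and 0.45 to 1.06. A difference between the 4 slides was called for 2521 probes (6.12%, limma F test, adjusted p below 0.05). Each slide held 2 of the 8 control mice, so that slide and mouse can be set apart only through those pairs.

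Set beside the lung of control mice, measured on other slides against the same reference, most of the liver-high probes also separated the organs. Of the 2898 probes higher than the reference, 1953 (67.4%) were also higher than in lung by more than 2-fold, where 6.30% of all probes were higher in liver and 7.86% lower. Of the 3663 lower ones, 1348 (36.8%) were also lower than in lung, and 2291 were not called. With 1 probe per gene 6.86% of genes were higher and 9.40% lower in liver. The plasma carriers had a median of 0.23 in lung, and 34 of 36 were higher in liver. Cell division genes had a median of -2.82 in lung and -3.04 in liver, and 6 of 60 were lower and 2 higher in liver. Matrix genes had a median of -0.46 in lung, and 38 of 53 were lower in liver.

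Single genes made the same division. Cps1 stood at 9.17 ± 0.27 in liver and 0.11 ± 0.12 in lung (SD, n = 6), a difference of 9.06 (adjusted p = 4.99e-18). Cav1 lay on opposite sides of the reference, from -5.56 to -5.08 with a median of -5.35 in liver and at 2.67 ± 0.11 in lung, a difference of -8.03 (adjusted p = 2.78e-19), and Ldhb, the lactate dehydrogenase of heart and lung, likewise, at -2.82 ± 0.18 and 2.10 ± 0.14. Hc, complement C5, was high in both organs at 7.33 ± 0.28 and 6.72 ± 0.24 and did not pass the test for a difference of over 2-fold (0.61, adjusted p = 1). The same held for Cyp2f2, a cytochrome of periportal liver and of airway club cells, at 5.58 ± 0.16 and 5.33 ± 0.32 (0.24, adjusted p = 1), and for Foxa2, which acts in hepatocytes and in lung epithelium, at 5.44 ± 0.29 and 5.45 ± 0.06 (-0.01, adjusted p = 1). A difference that missed this test is not shown to be absent. Organ, slide and scanner software version go together here and cannot be told apart, and the same kind of reference was on every array.

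**Figure D5:**
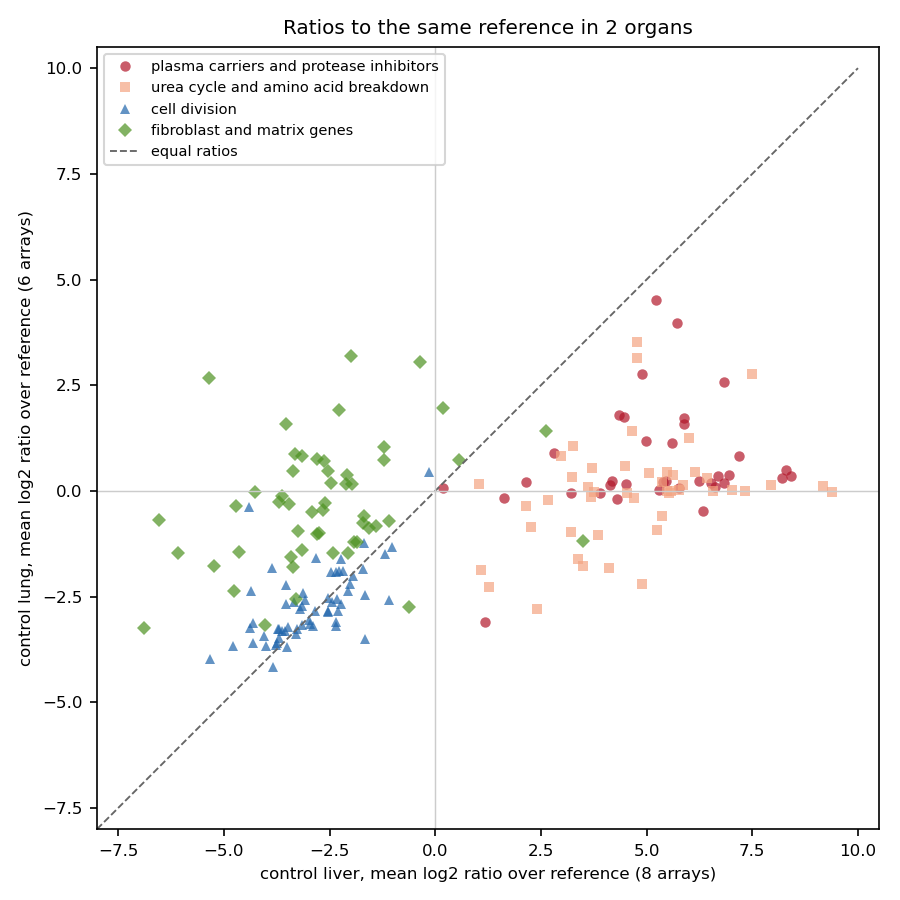
Mean log2 ratio over the reference in control liver (8 arrays, horizontal axis) and in control lung (6 arrays, vertical axis) for the members of 4 lists, with a dashed line of equal ratios. Plasma carriers and urea cycle genes lie mostly at the right and near 0 in lung, cell division genes near the line at the lower left, and matrix genes mostly left of the line.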

How the data were processed

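Log2 ratios of liver over reference were taken from the table of normalized values that the authors deposited, made by LOWESS normalization of median signal intensities. The direction and scale of this log2 table were not stated. Set against the scanner files, its ratios correlated at 0.936 to 0.966 with those of the median intensities without background subtraction, with slopes of 1.002 to 1.004. With the deposited log10 ratios of the scanner software, converted to log2, they correlated at 0.873 to 0.911, with slopes of 1.30 to 1.36. Positive values therefore mean more signal in liver, and ratios of dim probes are compressed. Deposited Cy5 and Cy3 intensities and the well-above-background marks of each spot, from Agilent Feature Extraction 10.1.1.1 for liver and 9.5.3.1 for lung, gave detection and bounds.

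Control spots and outlier-flagged spots (152 to 224 per array) were left out and spots of a probe averaged, which left 41174 probes. At most 4 spots of an array were saturated. The number of arrays, 8 and 6, limits the precision. Probes were named by accession (22951), symbol (6659) or synonym (3109) through RefSeq on GRCm38.p6, and 8455 kept the name of the file. A gene is represented by its probe with the highest mean signal. Of called list genes with several probes 118 had another probe that was not called, and none had probes called in opposite directions. The tests were limma (3.58.1, R 4.3.3) with treat at 2-fold and Benjamini-Hochberg adjustment over all probes, on the 8 liver arrays, and on these with 6 control lung arrays for the comparison of organs. A bound ("at least N-fold") uses per-channel values after loess and Aquantile, and is open to dye bias. Its normalization differs from that of the deposited ratios, so it can lie above the mean ratio, as for Ntrk2. On simulated data, 95% of probes with an added log2 change of 1.5 and 100% with 3 were called over the reference, and 90% and 100% between organs. The simulated arrays were independent, had no slide, reference or dye error, and held all other probes at 0. These shares check the code only and cannot show how reliable the calls on the real arrays are. Replicates were 1 mouse each. Mice 24, 26, 27, 29, 32 and 34 gave both organs, so mouse numbers pair the samples, although their deviations from the group means correlated at only -0.0371 to 0.185 over 19722 probes.

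Genes named were the 20 highest and 20 lowest called genes, the 15 with the largest SD and the members of 29 lists and of the cell type marker sets, a few of which are not reported here. The comparison set and lists were chosen with earlier results of these data known. Alternatives were normexp background correction (offset 50) with loess, uncorrected intensities with loess or median centering, the software's processed signals, a test against 0, a 4-fold threshold, a filter on dim probes, the slide as a random block, 1 probe per gene and leaving out each array. Leaving out slides was added after the data were seen.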

Additional observations from a re-analysis of the deposited data

Results flagged for a closer look

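Among 263 named genes, 18 (6.84%) had 1 mouse whose log2 ratio stood apart from the other 7, by a gap of more than 0.526 of the range of the 8. For normally distributed values chance alone marks about 1 in 20 groups in this way. The named genes include some chosen for a large SD over the same mice, such as Sult2a2 and Csf3r. Their share can therefore not be set against that figure. Of the 18 values, 6 belonged to mouse 32, 4 to mouse 29, 3 to mouse 45, 2 each to mice 34 and 37 and 1 to mouse 26.

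In mouse 32 the neutrophil genes Camp, Ltf and S100a8 stood at 2.84, 2.69 and 2.09 against highest values of 0.07, 0.69 and -0.10 elsewhere. Lcn2, Saa1 and Saa3 stood at 1.17, 3.34 and 0.035 in it, against at most 0.25, 2.53 and -0.69. In mouse 45 Sult2a2 stood at 3.02 and Sdha at 1.67, both the lowest, and Gstp1 at 0.13, the highest. Mouse 37 was lowest for Ccnb1, at -4.03, and highest for Hmga1, at -3.57. Mouse 29 was lowest for Angptl4, at -1.29 against 0.36 or more, for Iigp1, at 6.39, and for Col18a1, at 3.42. It was also lowest for Csf3r, at -3.28 against 0.68 or more, where the reference signal and not the liver signal stood apart. Mouse 34 was lowest for Ghr at 2.12 and highest for Saa2 at 4.59, and mouse 26 was lowest for Tagln at -3.11. The cause of these single values was not tested.

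For 8 of the 263 named genes every liver and every lung lay on opposite sides of the reference, each by more than 2-fold. The difference between the organs was called by limma for each. The share over all probes was not counted, so the number describes the named genes only. Liver was higher for Ass1, Col18a1 and Saa1, by 5.26, 4.68 and 3.56 on the log2 scale. Liver was lower for Cav1, Thbd, Cyp2s1, Ldhb and Krt19, where liver minus lung was -8.03, -6.25, -5.63, -4.92 and -4.56.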

How the results depend on the processing

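The number of called probes moved with the treatment of background and with the normalization. Against 2898 higher and 3663 lower probes, normexp correction gave 1640 and 1566, the processed signals of the scanner software 4836 and 5946, and uncorrected intensities 3226 and 3005 with loess but 2066 and 7063 with median centering. A test against 0 gave 12320 and 16344 and a 4-fold threshold 1475 and 1056. Leaving out 1 array gave 2858 to 2910 higher and 3573 to 3651 lower. The slide as a random block gave 2843 and 3565, and the calls over the reference of the 263 named genes stayed the same. Between liver and lung, 2593 higher and 3237 lower became 1423 higher with normexp correction, and 12270 and 12517 in a test against 0, and leaving out 1 array gave 2539 to 2614 higher and 3170 to 3231 lower. With the mouse number as a replicate block the organs differed at 2583 and 3179 probes, and among the named genes the block ended the call for Cenpe (-1.31, adjusted p = 0.0721) and made one for Cdc20 (-1.20, adjusted p = 0.0409) and Ntrk2 (2.21, adjusted p = 0.00874), which was also called without liver mouse 37 (2.08). The median SD over mice was 0.233 with normexp correction, against 0.142, and 0.139 to 0.143 without 1 array. The cause of these shifts was not tested.

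No called ratio of the 263 named genes changed sign under any of these alternatives. Normexp correction ended the call over the reference for 32 of them and between organs for 21. Without 1 array, Cish was called without mouse 27 (2.05) and Socs3 without mouse 32 (-1.64) or 37 (-1.59), and Srebf2 lost its call without any of 5 mice. Olfr176 was called without mouse 24, 26 or 32, at 2.90 to 2.93. With slides 2 and 4 alone the calls for Cyp2c55 (-1.25), Des (-1.21), Hao2 (2.15) and Srebf2 (-1.08) were lost and those for Olfr176 (4.37), Olfr644 (3.09) and Olfr845 (2.76) made. With slides 1 and 3 alone Srebf1 (1.33) was lost and Cish (2.04) and Pdgfrb (-1.17) were called, and Pdk4 (2.10) was called without slide 4. Median centering gave 8 interferon genes higher and 5 lower, against 13 and 0, and 7 bile duct markers lower, against 3. With normexp correction 1 mesothelium and muscle marker was called lower, against 5, 2 T and NK cell markers, against 4, and 1 cytochrome, against 3, and none of the B cell or pancreatic markers called higher. Ratios of dim probes, reference pool error and dye bias limit what the folds can show.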

Other observations

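Gadd45g, a stress-inducible regulator of kinase signaling, was among the 15 genes with the widest spread over the mice. It had log2 ratios from -2.68 to 1.64 with a median of -1.85, and mice 32 and 37 were highest at 1.64 and 0.69. Noct, a rhythmically expressed gene, also among them, ran from -1.67 to 1.68 with a median of -0.03. Ntrk2, a neurotrophin receptor, ran from 1.00 to 5.34 with a median of 3.61, with its reference signal below background on every array. The bound from per-channel values, 12.4-fold higher in liver, was close to the 12.3-fold of the mean ratio and is no firm minimum. With normexp correction the mean was 2.62 and was not called (adjusted p = 0.123, limma treat test). The olfactory receptor gene Olfr845 ran from 0.48 to 3.43 with a median of 1.10. Csf3r, the receptor of the granulocyte growth factor, stood at -3.28 in mouse 29 and at 0.68 to 1.38 in the other 7. Its liver signal in mouse 29 was 183.5 intensity units, within the range of 127.0 to 214.5 over the others, while its reference signal was 1479 on that array and 33.0 to 40.0 on the rest. The low Csf3r ratio of mouse 29 thus lay in the reference channel. The cause was not tested.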
